A study of Mus musculus with 8 samples.

Results

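Genes induced by interferons were examined in spleens of mice lacking Nix, the mitochondrial protein encoded by Bnip3l. The set was a list of 37 gene symbols, and its members were all probe sets that the platform annotation gives to those symbols: 55 of the 45037 probe sets on the arrays that are not controls, from 36 of the 37 genes. The annotation does not name Ifi44, which is not analysed here. The study compared 4 Nix-null mice (labelled Nix-/-, here Nix_KO) with 4 wild-type mice (WT), all 8 weeks old and untreated, with the total RNA of 1 whole spleen hybridised to each Affymetrix mouse expression array. Each array carries its genotype and its animal's number as titled, Nix_KO 10, 2, 3 or 6 and WT 3, 4, 5 or 6, and values are given in that order. Strain, sex and the deleted part of Bnip3l are not given in the sources used here.

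Interferons are secreted signals of infection. Type I interferons act through the receptor chains Ifnar1 and Ifnar2 and the factor ISGF3, which contains Stat2 and Irf9 and binds an interferon-stimulated response element (ISRE) and switches on antiviral genes such as those of the IFIT, OAS and MX families. Interferon-gamma, made mainly by natural killer and T cells, acts through Ifngr1 and Ifngr2 and on promoters with a gamma-activated sequence (GAS), and it drives Irf1, the chemokines Cxcl9 and Cxcl10 and the GTPases of the GBP and IRG families. Many of these genes answer to both. In the spleen, macrophages, dendritic cells and lymphocytes are known for expressing them at rest. For the comparison of classes, 29 listed genes were taken as type I antiviral and 8 as interferon-gamma genes.

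Deposited intensities were read as log2 values, and a probe set was tested where at least 4 of the 8 arrays reached a log2 intensity of 5, a level that 48.6% to 49.3% of probe sets reached in each array. The 3 probe sets that carry Bnip3l are annotated jointly with its pseudogene Bnip3l-ps and read log2 intensities of 9.38 to 13.16 over the 8 arrays, so the loss of Nix could not be read from them and the genotypes are taken as labelled. Signal of pancreas set 3 arrays apart: the summed linear intensity of 8 pancreas markers (exocrine, except Ins2, which did not reach the level for testing) was 62650 in Nix_KO 3, 34035 in WT 3 and 9011 in WT 5, against 793 to 2079 in the other 5. Counts are therefore also given without those 3 arrays. The markers of the main blood cell types differed between genotypes. In Nix-null arrays the summed intensity of 8 markers of red cell precursors ranged from 93259 to 117104, against 24247 to 52746 in wild type, with Hba-a1 under a log2 intensity of 5 in all arrays, and that of 9 neutrophil markers from 42362 to 76251 against 6949 to 41607. The sums were lower for 9 B cell markers (13551 to 23484 against 41706 to 51007), 8 natural killer cell markers (962 to 1629 against 2603 to 3197), 12 dendritic cell markers (5938 to 9240 against 14143 to 18146), 13 macrophage and monocyte markers (29223 to 45585 against 47134 to 54931) and 8 markers of endothelium and stroma (2878 to 5439 against 8086 to 9285). The sum of 8 T cell markers ranged from 4099 to 8096 against 7924 to 11686. Such sums follow their brightest markers. Of 12 tested macrophage and monocyte markers 4 fell, 0 rose and 8 did not pass at limma adjusted p under 0.05, and 3 had a positive change. Among all genes 24.1% fell and 14.2% rose. Of 11 tested dendritic cell markers 7 fell and 0 rose by the same test, while Siglech, Ccr9, Tcf4 and Cd209a did not pass. The brightest in wild type, Ly6d and Irf8 (mean log2 intensities of 12.59 and 12.38), were among those that fell. These genes carried most of the dendritic cell sum in wild type, and Bst2, a member of the set, is also in that sum. Among macrophage markers Siglec1 and among dendritic cell markers Xcr1 stayed below a log2 intensity of 5 in all arrays. The part of these cell shifts in the results below was not tested, and in whole spleen fewer cells of a type and less RNA per cell cannot be told apart.

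The set did not move one way. A small group of antiviral genes, Rsad2, Oas3, Ifit1, Usp18 and Ifih1, was higher in Nix-null spleen, while Irf1, Cxcl10, Gbp2, Gbp3, Ddx58, Bst2, Zbp1, Ifi213, Stat2 and Parp14 were lower. Of the 34 member genes tested, each by its brightest probe set, 5 rose, 10 fell and 19 did not pass (limma, Benjamini-Hochberg adjusted p under 0.05 over all 11027 genes). The members' shares of 14.7% higher and 29.4% lower stood beside 14.2% and 24.1% among all genes (38.3% in either direction), so the counts were close to the background and are not a result about the set. The median log2 change was -0.22 over the 34 members and -0.15 over all genes. Groups did not overlap for 4 members that were higher and 7 that were lower, where 15.7% and 23.9% of all genes had such groups (39.6% in either direction). Without Nix_KO 3, WT 3 and WT 5, 2 members rose and 7 fell, beside 846 and 838 of all 11027 genes. Leaving out 1 array at a time, the number that rose was 3 without Nix_KO 2, without Nix_KO 6 or without WT 5, and the number that fell was 6 without Nix_KO 3 or without WT 3 and 5 without WT 4 or without WT 6. Counts were larger without Nix_KO 10, where 6 rose and 12 fell, and 11 fell without WT 5. Over these settings 1222 to 1619 of all genes rose and 1780 to 2743 fell. Of the 15 called members, Rsad2, Oas3, Ddx58 and Irf1 passed in the same direction in all 19 alternative settings. The plot of members by array shows the spread behind each change.

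**Figure D1:**
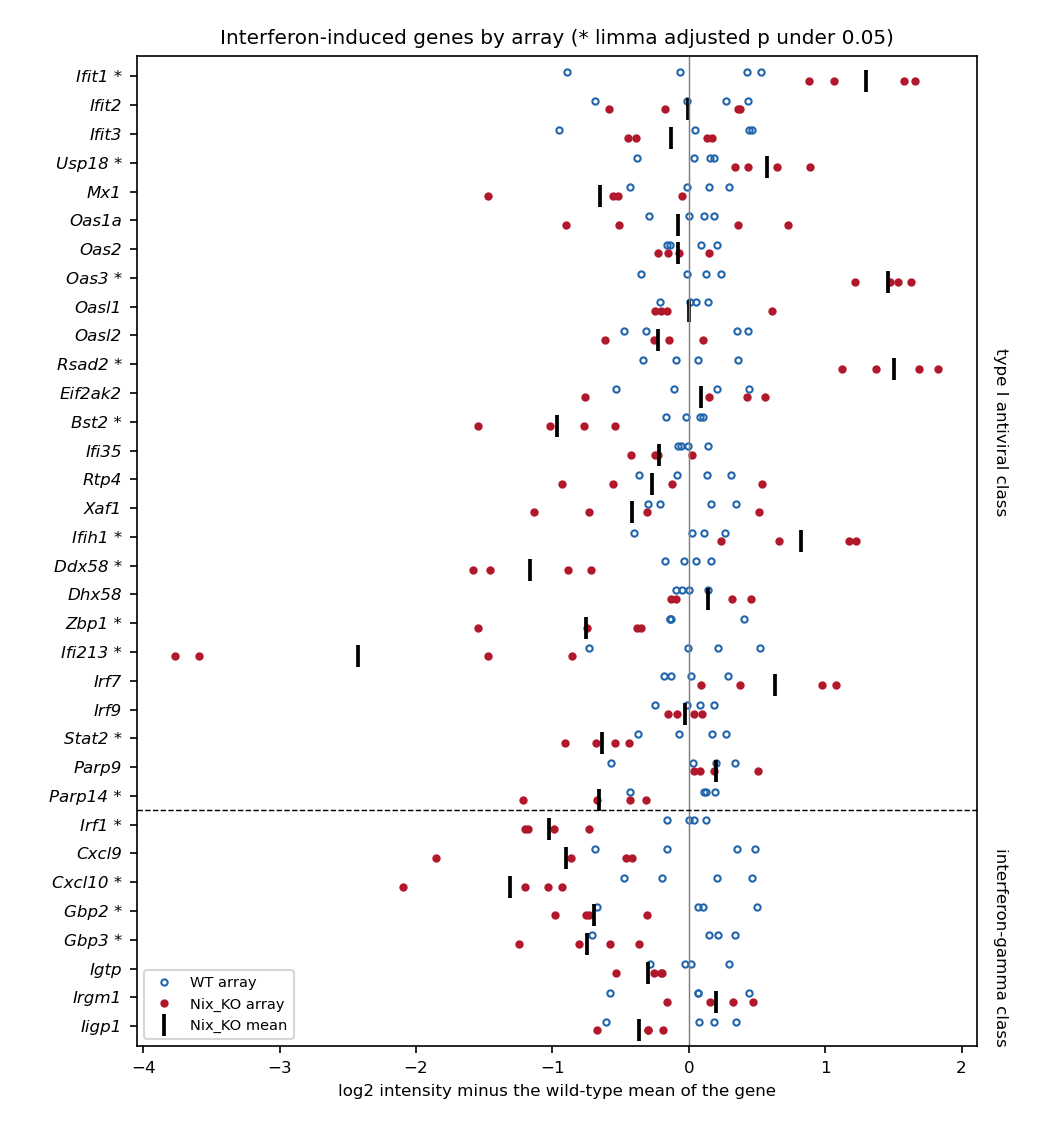
Log2 intensity of the 34 tested members in each array minus that gene's wild-type mean (horizontal axis, log2 units), with open blue circles for WT arrays, red points for Nix_KO arrays and a black tick for the Nix_KO mean; an asterisk marks limma adjusted p under 0.05 over all genes. Rsad2 and Oas3 stand right of all their wild-type points, and Ddx58, Bst2, Ifi213, Irf1 and Cxcl10 stand left of theirs, while Ifit2, Oas2 and Irf9 sit on the wild-type values.

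Promoter sequences are shown for 3 members that rose and 3 that fell, because ISRE-like letter matches were found in members of both kinds. They come from RefSeq (build GRCm38.p6), each running 5′ to 3′ from 250 bases before to 50 bases after an annotated gene start, and such an entry was matched for 27 of the 37 symbols. Capitals mark matches to an ISRE-like motif (GAAANNGAAA on either strand, where N is any base) or a GAS-like motif (TTCNNNGAA, which reads alike on both strands); matches may overlap one another. Rsad2, Oas3 and Ifit1 were higher in Nix-null spleen.
Rsad2, chr12:26456403-26456702, minus strand: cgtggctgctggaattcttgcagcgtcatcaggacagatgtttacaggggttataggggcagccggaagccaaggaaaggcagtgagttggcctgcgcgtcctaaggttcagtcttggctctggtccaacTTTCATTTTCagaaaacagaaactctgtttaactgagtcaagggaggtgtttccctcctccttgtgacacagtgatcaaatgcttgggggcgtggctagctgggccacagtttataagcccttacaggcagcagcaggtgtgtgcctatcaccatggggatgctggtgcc
Oas3, chr5:120777610-120777909, minus strand: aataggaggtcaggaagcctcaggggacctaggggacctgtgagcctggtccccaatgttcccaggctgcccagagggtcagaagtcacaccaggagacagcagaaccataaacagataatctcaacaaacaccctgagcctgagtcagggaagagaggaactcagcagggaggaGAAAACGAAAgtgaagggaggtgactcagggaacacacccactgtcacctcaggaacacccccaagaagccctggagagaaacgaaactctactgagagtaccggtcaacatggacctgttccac
Ifit1, chr19:34640639-34640938, plus strand: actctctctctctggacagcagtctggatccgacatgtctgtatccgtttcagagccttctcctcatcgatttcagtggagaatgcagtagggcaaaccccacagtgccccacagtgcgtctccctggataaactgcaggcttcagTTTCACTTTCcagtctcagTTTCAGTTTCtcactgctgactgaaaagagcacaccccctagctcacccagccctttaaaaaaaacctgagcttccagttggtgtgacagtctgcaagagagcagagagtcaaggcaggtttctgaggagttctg
Cxcl10, Bst2 and Irf1 were lower.
Cxcl10, chr5:92348840-92349139, minus strand: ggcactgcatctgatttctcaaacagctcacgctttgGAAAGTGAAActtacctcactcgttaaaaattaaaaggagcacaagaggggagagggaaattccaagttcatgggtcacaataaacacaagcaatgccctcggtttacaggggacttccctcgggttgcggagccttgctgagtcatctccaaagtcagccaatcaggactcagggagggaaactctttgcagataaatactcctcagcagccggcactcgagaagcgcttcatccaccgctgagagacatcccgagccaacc
Bst2, chr8:71537423-71537722, minus strand: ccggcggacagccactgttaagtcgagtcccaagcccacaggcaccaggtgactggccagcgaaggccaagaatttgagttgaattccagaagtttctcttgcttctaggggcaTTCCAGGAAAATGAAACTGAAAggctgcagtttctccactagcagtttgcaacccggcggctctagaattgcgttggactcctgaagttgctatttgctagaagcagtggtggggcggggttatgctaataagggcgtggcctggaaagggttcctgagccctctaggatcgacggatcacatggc
Irf1, chr11:53769764-53770063, plus strand: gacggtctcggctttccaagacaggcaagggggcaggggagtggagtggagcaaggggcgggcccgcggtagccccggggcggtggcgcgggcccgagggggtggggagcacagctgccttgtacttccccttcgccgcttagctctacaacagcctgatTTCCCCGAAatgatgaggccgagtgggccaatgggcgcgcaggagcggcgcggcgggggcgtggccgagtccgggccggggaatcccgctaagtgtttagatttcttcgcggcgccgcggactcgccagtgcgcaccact
The ISRE-like motif began 120 bases before the start in Rsad2, 75 bases in Oas3, 104 and 85 bases in Ifit1 and 213 bases in Cxcl10. Bst2 held overlapping matches to both motifs, with the GAS-like one 136 bases and the ISRE-like ones 130 and 124 bases before the start. Irf1 held a GAS-like match 90 bases before the first of its 2 listed starts and no ISRE-like one. Of the members with a sequence, an ISRE-like match was found for 4 of 4 that rose, 7 of 8 that fell and 5 of 13 that did not pass, and for 3.44% of all 32851 promoter entries of that length. GAS-like matches were found for 0 of 4, 2 of 8 and 5 of 13, and for 8.30% of all entries. The motif letters thus did not separate members that rose from members that fell, and a match is a description of letters, not of a bound site.

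Of 16 tested effectors of the antiviral state 4 rose and 1 fell (14.2% and 24.1% of all genes). Rsad2 encodes viperin, an enzyme that makes a chain-terminating nucleotide. Its brightest probe set read log2 intensities of 13.66, 13.97, 14.11 and 13.41 in Nix_KO 10, 2, 3 and 6, and 12.35, 11.95, 12.64 and 12.19 in WT 3, 4, 5 and 6. All Nix-null arrays lay above all wild-type arrays, with a rise of 2.84-fold (log2 1.51 ± 0.20 SE, n = 4 per group, limma adjusted p = 0.00127). The other two probe sets of the gene rose by log2 1.90 and 1.93 (limma adjusted p = 0.00214 and 0.00340 over all probe sets), so all 3 passed. Of all tested probe sets 12.5% were called higher and 17.6% lower, 30.0% in either direction.

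Oas3 encodes an oligoadenylate synthetase, which senses double-stranded RNA and activates RNase L. It read 8.96, 9.37, 9.22 and 9.27 in Nix_KO 10, 2, 3 and 6 and 7.86, 7.73, 7.98 and 7.39 in WT 3, 4, 5 and 6. The groups were separated by almost a full log2 unit, and the rise was 2.76-fold (log2 1.46 ± 0.17 SE, limma adjusted p = 0.00112). Its relatives Oas1a and Oas2 did not pass, with log2 differences of -0.08 and -0.07 (limma adjusted p = 0.862 and 0.725), whose sign turned when each array was centred on its median. Oas2 lies next to Oas3 in the genome. Oas1a was uneven within the Nix-null group, at 8.67 and 8.28 in Nix_KO 10 and 3 and 9.55 and 9.91 in Nix_KO 2 and 6.

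Ifit1, which binds viral RNA lacking the host cap methylation, read 7.40, 7.22, 7.99 and 7.91 in Nix_KO 10, 2, 3 and 6. In WT 3, 4, 5 and 6 it read 6.76, 6.27, 5.44 and 6.86. The groups did not overlap; the rise was 2.46-fold (log2 1.30 ± 0.31 SE, limma adjusted p = 0.00906). Without the 3 arrays with pancreatic signal the change was 0.94 and did not pass (limma adjusted p = 0.0703), nor did it pass with the unequal-variance test (adjusted p = 0.0702). Ifit2 and Ifit3, its relatives in the same gene cluster, differed by -0.004 ± 0.28 SE and -0.13 ± 0.31 SE (limma adjusted p = 0.992 and 0.756), and in both WT 5 was the lowest array, as it was for Ifit1. Scaling by quantiles or by array medians turned the sign of Ifit2.

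Isg15, a ubiquitin-like modifier, had only 1 probe set, and it is annotated jointly to Isg15 and Gm9706, so its signal cannot be given to Isg15 alone. That joint probe set read 12.02, 12.95, 12.36 and 12.70 in Nix_KO 10, 2, 3 and 6 and 10.84, 10.47, 10.89 and 10.69 in WT 3, 4, 5 and 6. No Nix-null array came near a wild-type one, and the signal rose 3.44-fold (log2 1.78 ± 0.21 SE, limma adjusted p = 0.00217 over all probe sets). Usp18, the protease that removes ISG15 and damps the type I receptor, rose 1.49-fold (log2 0.58 ± 0.18 SE, limma adjusted p = 0.0303), from 8.02 to 8.59 in wild-type arrays to 8.74 to 9.29 in Nix-null arrays. The Usp18 call was lost without any 1 of Nix_KO 2, Nix_KO 6, WT 4 or WT 5 (log2 0.47, 0.55, 0.59 and 0.45, limma adjusted p = 0.0654, 0.0572, 0.0672 and 0.0797). It was also lost without the 3 arrays with pancreatic signal, with array weights and with the unequal-variance test (log2 0.51, 0.42 and 0.58, adjusted p = 0.156, 0.0526 and 0.0680).

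Bst2 encodes tetherin, which holds budding virus on the cell surface and marks plasmacytoid dendritic cells. It read 8.67, 9.15, 8.14 and 8.92 in Nix_KO 10, 2, 3 and 6 and 9.52, 9.67, 9.79 and 9.77 in WT 3, 4, 5 and 6. All Nix-null arrays were below all wild-type arrays, and Bst2 fell 1.96-fold (log2 -0.97 ± 0.21 SE, limma adjusted p = 0.00580). The call was lost without the 3 arrays with pancreatic signal (log2 -0.81, limma adjusted p = 0.0503) and with the unequal-variance test (adjusted p = 0.0654). Of the 10 other tested dendritic cell markers 6 fell and 0 rose, beside 24.1% lower and 14.2% higher among all genes. Those that fell were Batf3, Flt3, Irf8, Itgax, Ly6d and Zbtb46. Siglech, Ccr9, Tcf4 and Cd209a did not pass (log2 -0.39, -0.54, -0.54 and -1.53, limma adjusted p = 0.339, 0.141, 0.170 and 0.0684). The part of these markers in the change of Bst2 was not tested. The plot of values by array sets Bst2 beside the other members with separated groups.

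**Figure D2:**
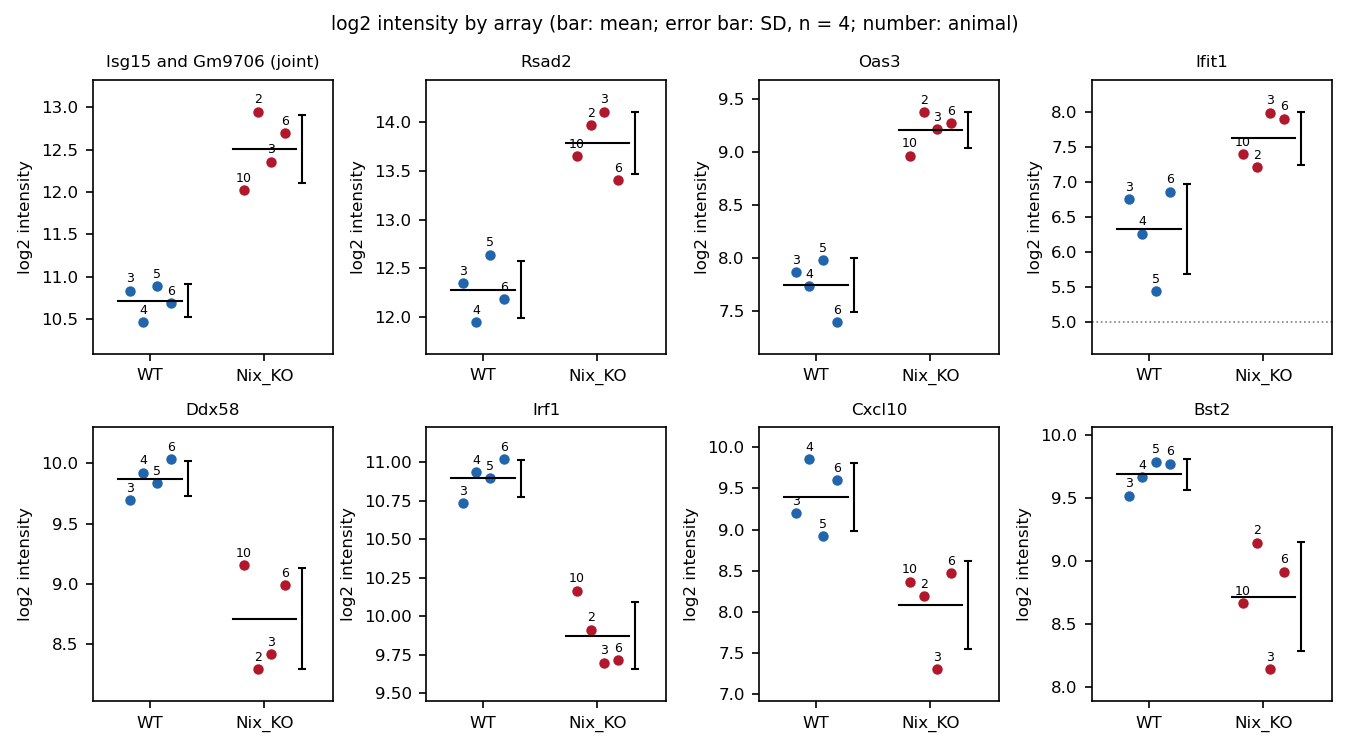
Log2 intensity (vertical axis) of 8 member probe sets in WT and Nix_KO arrays, each point 1 spleen with its animal number, the bar the mean and the error bar the SD (n = 4). The joint Isg15 and Gm9706 probe set, Rsad2, Oas3 and Ifit1 are higher in all Nix_KO arrays and Ddx58, Irf1, Cxcl10 and Bst2 lower in all of them.

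The remaining effectors did not pass. Mx1, a dynamin-like GTPase that blocks viral polymerases, differed by log2 -0.65 ± 0.28 SE (limma adjusted p = 0.0931); it read 4.61 in Nix_KO 2, below the level of 5, and passed without Nix_KO 10 (-0.85, limma adjusted p = 0.0316). Mx2 read 3.80 to 4.15 over all arrays and was not tested. Oasl1 and Oasl2, OAS-like proteins that lie side by side, differed by 0.0008 and -0.23 (limma adjusted p = 0.998 and 0.483), and Ifi35 and Rtp4 by -0.22 and -0.27 (limma adjusted p = 0.265 and 0.490). The groups of these tested genes overlapped.

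Eif2ak2 encodes PKR, the kinase that halts translation on sensing double-stranded RNA, and its 3 probe sets differed. The brightest, C, differed by 0.09 ± 0.30 SE (limma adjusted p = 0.834). Probe set A, the dimmest, read 6.25, 6.70, 6.39 and 6.17 in Nix_KO 10, 2, 3 and 6 and 5.42, 4.80, 4.02 and 4.76 in WT 3, 4, 5 and 6. It was higher in all Nix-null arrays, at least 2.42-fold with wild-type values under 5 set to 5 (limma adjusted p = 0.00390 over all probe sets), while B differed by 0.59 ± 0.23 SE (limma adjusted p = 0.0861). Averaged over its probe sets, the gene passed (log2 0.77, limma adjusted p = 0.0135). Its adjusted p ran from 0.0135 to 0.968 across alternatives. By its brightest probe set Eif2ak2 is counted among the members that did not pass, and probe set A among the probe sets that rose. No single reading of the gene is therefore given.

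Xaf1, an interferon-induced antagonist of the apoptosis inhibitor XIAP, had 2 probe sets with opposite signs. The brighter, A, differed by -0.41 ± 0.32 SE (limma adjusted p = 0.323) and passed as lower only without Nix_KO 6 (-0.72, limma adjusted p = 0.0396). Probe set B read 9.47 and 9.46 in Nix_KO 10 and 2 but 5.32 and 5.17 in Nix_KO 3 and 6, and 4.93, 4.90, 4.86 and 4.84 in WT 3, 4, 5 and 6. The Nix-null arrays thus fell into 2 levels on B, the lower one near that of wild type, and the SD of 2.44 in Nix-null against 0.04 in wild type left the difference of 2.47 short of the test (limma adjusted p = 0.0808). Averaging both probe sets turned the gene's change to 1.03 (limma adjusted p = 0.0498).

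Of 5 tested nucleic acid sensors 1 rose and 3 fell, a count too small to set against the 14.2% higher and 24.1% lower among all genes. Ifih1, the gene for MDA5, which detects long double-stranded RNA, read 8.19, 9.12, 8.61 and 9.17 in Nix_KO 10, 2, 3 and 6 and 7.97, 8.21, 7.55 and 8.06 in WT 3, 4, 5 and 6. The groups overlapped only through Nix_KO 10 and WT 4, with a rise of 1.77-fold (log2 0.82 ± 0.24 SE, limma adjusted p = 0.0215). This call was lost without Nix_KO 2, Nix_KO 6 or WT 5 (log2 0.71, 0.69 and 0.69, limma adjusted p = 0.0551, 0.0526 and 0.0651). Ifih1 also failed to pass without the 3 arrays with pancreatic signal, with array weights and with the unequal-variance test (log2 0.69, 0.48 and 0.82, adjusted p = 0.179, 0.0961 and 0.0896).

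Ddx58 encodes RIG-I, the relative of MDA5 that detects short RNA with a triphosphate end. It read 9.15, 8.29, 8.41 and 8.99 in Nix_KO 10, 2, 3 and 6 and 9.70, 9.92, 9.84 and 10.04 in WT 3, 4, 5 and 6. Every Nix-null array was below every wild-type array, and Ddx58 fell 2.24-fold (log2 -1.16 ± 0.21 SE, limma adjusted p = 0.00271). Its other two probe sets fell as well, by log2 -1.28 and -1.32, of which the last is at least 2.29-fold because 2 Nix-null arrays were under 5 (limma adjusted p = 0.0120 and 0.00402 over all probe sets). Dhx58, the gene for LGP2, the third member of that receptor family, differed by 0.14 ± 0.17 SE (limma adjusted p = 0.545), with 2 further probe sets under 5 in all arrays.

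Ifi213, a member of the interferon-inducible PYHIN family of DNA sensors, had the largest fall of the set and an uneven one. It read 5.80 and 5.98 in Nix_KO 10 and 2, 8.71 and 8.10 in Nix_KO 3 and 6, and 9.78, 9.56, 8.84 and 10.09 in WT 3, 4, 5 and 6. The groups did not overlap, but Nix_KO 3 lay just below WT 5, and the same 2 arrays that were low here, Nix_KO 10 and 2, were the high ones on Xaf1 probe set B. The change was log2 -2.42 ± 0.61 SE (limma adjusted p = 0.0111), and under a test with unequal variances it did not pass (adjusted p = 0.106). Zbp1, a sensor of Z-form nucleic acid that triggers necroptosis, read 8.26, 8.29, 7.09 and 7.89 in Nix_KO 10, 2, 3 and 6 against 8.50, 8.50, 8.51 and 9.05 in WT 3, 4, 5 and 6. It fell 1.69-fold (log2 -0.76 ± 0.27 SE, limma adjusted p = 0.0453), a call lost without any 1 of Nix_KO 3, Nix_KO 6 or the 4 wild-type arrays (log2 -0.80 to -0.49, limma adjusted p = 0.0619 to 0.123). Zbp1 did not pass either with no filter, with quantile or median scaling, with the unequal-variance test or without the 3 arrays with pancreatic signal (adjusted p = 0.0757 to 0.146). The plot of disagreeing probe sets shows the 2 levels of Xaf1 and Ifi213.

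**Figure D3:**
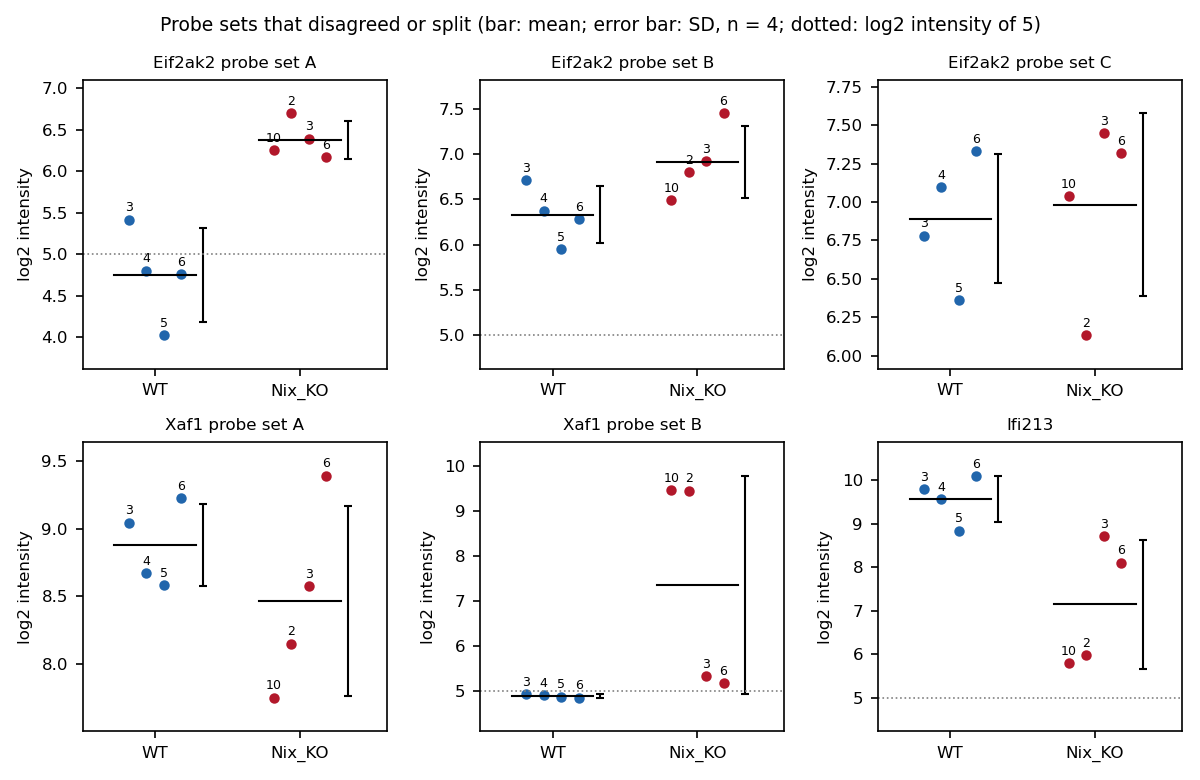
Log2 intensity (vertical axis) of 3 Eif2ak2, 2 Xaf1 and 1 Ifi213 probe sets in WT and Nix_KO arrays, each point 1 spleen with its animal number, the bar the mean, the error bar the SD (n = 4) and the dotted line a log2 intensity of 5. Nix_KO 10 and 2 stand above 9 on Xaf1 probe set B and at or below 5.98 on Ifi213, away from Nix_KO 3 and 6 in both.

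Of the factors that carry the type I signal, Stat2 fell and Irf7 and Irf9 did not pass. Stat2 read 6.53, 6.16, 6.39 and 6.63 in Nix_KO 10, 2, 3 and 6 and 6.99, 7.34, 6.69 and 7.24 in WT 3, 4, 5 and 6, which did not overlap. It fell 1.56-fold (log2 -0.64 ± 0.18 SE, limma adjusted p = 0.0191), and the call was lost without WT 4 or WT 6 (log2 -0.55 and -0.58, limma adjusted p = 0.0657 and 0.0611) and with the unequal-variance test (adjusted p = 0.0590). Irf7, the factor that amplifies type I interferon production, differed by 0.63 ± 0.23 SE (limma adjusted p = 0.0533), with Nix_KO 2 and 6 at 9.73 and 9.83, Nix_KO 10 and 3 at 8.85 and 9.13 and wild-type arrays from 8.58 to 9.05. Irf7 passed in 5 of 19 alternatives, among them without Nix_KO 10 (0.81, limma adjusted p = 0.0148) and with arrays centred on their medians (0.75, limma adjusted p = 0.0338). Across alternatives its adjusted p ran from 0.0148 to 0.221. Irf9, the partner of Stat2 in ISGF3, differed by -0.03 ± 0.15 SE (limma adjusted p = 0.905), with the opposite sign under both other scalings.

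Parp9 and Parp14, ADP-ribosyltransferase family genes that lie close together, differed by 0.20 ± 0.21 SE (limma adjusted p = 0.474) and fell 1.58-fold (log2 -0.66 ± 0.22 SE, limma adjusted p = 0.0392), respectively. The Parp14 groups overlapped through WT 5 at 8.32. Its call was lost without any 1 of Nix_KO 2, Nix_KO 3, WT 3, WT 4 or WT 6 (log2 -0.66 to -0.48, limma adjusted p = 0.0727 to 0.103). Nor did Parp14 pass with no filter, with arrays centred on their medians, with averaged probe sets, with the unequal-variance test or without the 3 arrays with pancreatic signal (adjusted p = 0.0567 to 0.107).

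Of 8 tested interferon-gamma genes, 4 fell, 0 rose and 7 had a negative change, with a median log2 change of -0.72. Among all genes 24.1% fell, 14.2% rose and 60.3% had a negative change, with a median of -0.15, and whether the class differed from them was not tested. By limma at an unadjusted p under 0.05, and by the unequal-variance test after adjustment, the number that rose was also 0. The same held for the 12 receptor and signalling genes and the 15 sensing and induction genes described further on. The unequal-variance test called 864 of all 11027 genes higher, so by it counts of 0 in lists this small say little. The number of all genes higher at an unadjusted p is not given, so those counts cannot be set against it. Irf1, the factor that relays the interferon-gamma signal, read 10.17, 9.91, 9.70 and 9.72 in Nix_KO 10, 2, 3 and 6 and 10.73, 10.93, 10.90 and 11.02 in WT 3, 4, 5 and 6. The groups did not overlap. Irf1 fell 2.03-fold (log2 -1.02 ± 0.16 SE, limma adjusted p = 0.00162).

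The chemokines Cxcl9 and Cxcl10 bind Cxcr3 and draw activated T and natural killer cells. Cxcl10 read 8.37, 8.19, 7.30 and 8.47 in Nix_KO 10, 2, 3 and 6 and 9.20, 9.86, 8.92 and 9.60 in WT 3, 4, 5 and 6. Nix_KO 3 was the lowest array, the groups did not overlap, and Cxcl10 fell 2.48-fold (log2 -1.31 ± 0.28 SE, limma adjusted p = 0.00578; 0.0506 with the unequal-variance test). Cxcl9 differed by log2 -0.90 ± 0.35 SE (limma adjusted p = 0.0629), with Nix_KO 3 lowest at 7.32. Cxcl9 passed in 6 of 19 alternatives, among them without Nix_KO 10 or WT 5 (log2 -1.04 and -1.12, limma adjusted p = 0.0471 and 0.0388). Its adjusted p ran from 0.0169 to 0.167 across alternatives. The dimmer probe set of Cxcl9 fell by log2 -0.71 (limma adjusted p = 0.0412 over all probe sets).

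Gbp2 and Gbp3 encode guanylate-binding proteins, which attack the vacuoles and membranes of intracellular pathogens. Gbp2 ranged from 8.88 to 9.55 in Nix-null and from 9.19 to 10.36 in wild-type arrays, and fell 1.62-fold (log2 -0.69 ± 0.25 SE, limma adjusted p = 0.0470). Gbp3 ranged from 7.55 to 8.43 and from 8.08 to 9.13, and fell 1.68-fold (log2 -0.75 ± 0.26 SE, limma adjusted p = 0.0446). In both the overlap came through WT 5, the lowest wild-type array, and both calls were lost without any 1 of Nix_KO 2, Nix_KO 3, Nix_KO 6, WT 3, WT 4 or WT 6 (Gbp2 log2 -0.68 to -0.53, limma adjusted p = 0.0845 to 0.132, and Gbp3 log2 -0.80 to -0.58, limma adjusted p = 0.0566 to 0.119). Neither passed with no filter, with quantile or median scaling or with the unequal-variance test (adjusted p = 0.0568 to 0.135), and Gbp3 did not pass without the 3 arrays with pancreatic signal (log2 -0.97, limma adjusted p = 0.0658).

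The immunity-related GTPases, which coat vacuoles of parasites, did not pass. Igtp differed by -0.30 ± 0.16 SE, Iigp1 by -0.36 ± 0.22 SE and Irgm1, a regulator of the others, by 0.20 ± 0.23 SE (limma adjusted p = 0.175, 0.206 and 0.515). Iigp1 passed in 2 of 19 alternatives, among them without WT 5 (-0.57, limma adjusted p = 0.0354). Its dimmer probe set fell by log2 -0.68 with groups that did not overlap (limma adjusted p = 0.0149 over all probe sets).

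Of the 51 member probe sets tested, 9 rose and 11 fell, where 12.5% and 17.6% of all probe sets did. Of 40 type I probe sets 9 rose, from 7 genes with 3 of the 9 from Rsad2, and 7 fell, while of 11 interferon-gamma ones 0 rose and 4 fell. In 12 genes with more than 1 tested probe set, the probe sets agreed in call for 7 and differed for 5, namely Cxcl9, Eif2ak2, Iigp1, Stat2 and Zbp1. Gbp2, Gbp3, Parp14 and the brighter probe set of Zbp1, which passed among genes, did not pass among all probe sets.

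The classes were then contrasted array by array. Each of the 34 genes was centred on its mean over the 8 arrays, and the means of 26 type I and 8 interferon-gamma genes were taken in every array. The type I mean was -0.17, -0.14, -0.11 and 0.28 in Nix_KO 10, 2, 3 and 6 and 0.14, 0.03, -0.27 and 0.26 in WT 3, 4, 5 and 6, which overlapped over most of their range. The interferon-gamma mean was -0.06, -0.33, -0.68 and -0.22 in Nix-null arrays and 0.32, 0.48, -0.18 and 0.66 in wild-type arrays, in the same orders. Here WT 5 lay within the Nix-null range and the other wild-type arrays above it. The type I minus interferon-gamma difference was -0.11, 0.18, 0.56 and 0.49 in Nix-null and -0.18, -0.45, -0.09 and -0.40 in wild-type arrays, so that 3 Nix-null arrays exceeded every wild-type array and Nix_KO 10 did not exceed WT 5. The means were 0.28 ± 0.31 and -0.28 ± 0.17 (SD, n = 4 each), 0.57 apart. No test is given, since the genes were chosen with results of these data known. The gap was between 0.47 and 0.70 with 1 array left out, 0.62 without the 3 arrays with pancreatic signal, and 0.39 with Cxcl10 and Irf1 left out. With the type I class narrowed to the IFIT, OAS, OASL and MX genes with Usp18, Rsad2 and Irf7, it was 1.0. That class left out Bst2, Ddx58, Zbp1, Ifi213, Stat2 and Parp14, all the type I members called lower, and Ifih1 of those called higher. The larger gap thus depended on which members were dropped.

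**Figure D4:**
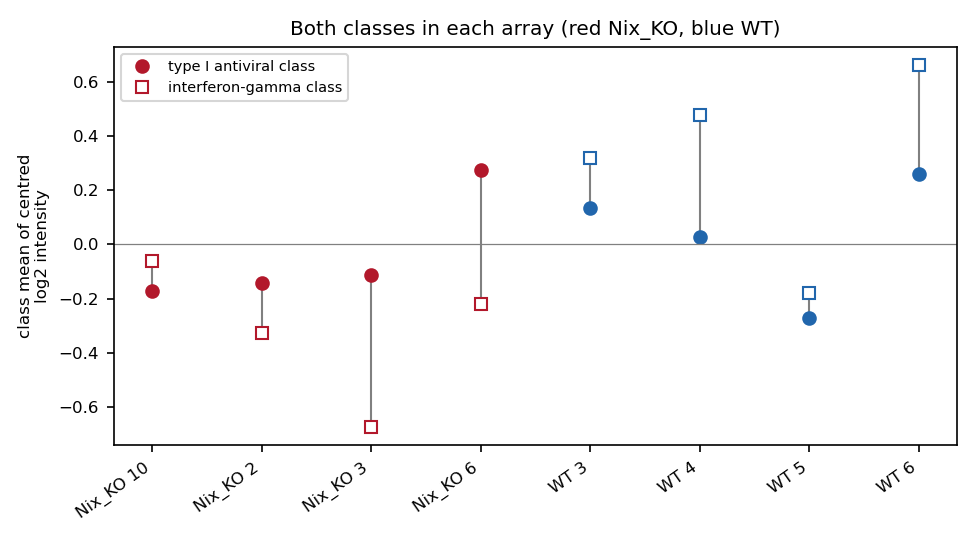
Mean centred log2 intensity (vertical axis) of 26 type I antiviral genes (filled circles) and 8 interferon-gamma genes (open squares) in each array, red for Nix_KO and blue for WT, with a grey line joining the classes of 1 array. The circle lies above the square in Nix_KO 2, 3 and 6 and below it in Nix_KO 10 and in the WT arrays.

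The variation of members within a genotype was also described. After removing each genotype's mean, the median Pearson correlation over the 8 arrays was 0.68 over the 28 pairs of interferon-gamma genes, 0.31 over the 325 pairs of type I genes and 0.36 over the 208 pairs across classes; all pairs share the same arrays and scaling. Rsad2 and Oas3 ran against the rest: the median correlation with the 33 other members was -0.56 for Rsad2 and -0.39 for Oas3, against 0.47 for Ifit1, 0.47 for Cxcl10 and 0.49 for Ifit2. Irf1 and Ifi35 also had negative medians (-0.10 and -0.19). These values are descriptive. No such value is given for all genes, so they cannot be called particular to the members.

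Relatives within a family differed in their changes, given here as a description with no test, since the families were listed with the members' changes known. The change of Oas3 exceeded that of Oas2 by log2 1.54 and that of Oas1a by 1.55, and the change of Ifit1 exceeded that of Ifit2 by 1.30 and that of Ifit3 by 1.43. Among the RNA sensors the change of Ifih1 exceeded that of Ddx58 by 1.99 and that of Dhx58 by 0.69. The changes of Cxcl9 and Cxcl10 differed by 0.41, and those of Gbp2 and Gbp3 by 0.05.

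Genes around the set in the same pathway were lower or did not pass, apart from a few induced genes. Of 12 tested receptors and signal carriers 6 fell and 0 rose, with a median log2 change of -0.48, beside 24.1% lower, 14.2% higher and a median of -0.15 among all genes. Ifngr1, the binding chain of the interferon-gamma receptor, fell 1.53-fold (log2 -0.61 ± 0.15 SE, limma adjusted p = 0.0111) and Tyk2, a kinase of the type I receptor, 1.70-fold. Stat3 fell 2.26-fold and Ptpn6, the phosphatase SHP-1 of blood cells, 3.04-fold (limma adjusted p = 0.00357, 0.00263 and 0.00256 for Tyk2, Stat3 and Ptpn6). The type I receptor chains Ifnar1 and Ifnar2 differed by -0.41 and -0.05 (limma adjusted p = 0.197 and 0.823).

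Upstream of the interferons, 9 of 15 tested sensing and induction genes fell and 0 rose (24.1% and 14.2% of all genes), with a median log2 change of -0.75 (-0.15 over all genes). Irf5, a factor downstream of Toll-like receptors, fell 2.62-fold, Unc93b1, which carries nucleic acid sensing Toll-like receptors to endosomes, 2.37-fold, Irf8, a factor of dendritic cells and macrophages, 2.18-fold and Irf3, the factor that starts type I interferon transcription, 1.71-fold (limma adjusted p = 0.00118, 0.00159, 0.00352 and 0.00300). Mavs, the mitochondrial adaptor of RIG-I and MDA5, differed by 0.03 ± 0.18 SE (limma adjusted p = 0.910). The interferon genes Ifng and Ifnb1 did not reach the level for testing.

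Of 32 other tested interferon-induced genes 14 fell and 4 rose, with a median log2 change of -0.60 against -0.15 over all genes. The share that rose, 12.5%, was near the 14.2% of all genes, and 43.8% fell against 24.1%. The 4 that rose were Isg20, an exonuclease of viral RNA (3.21-fold, log2 1.68 ± 0.28 SE, limma adjusted p = 0.00207), Cmpk2, a mitochondrial nucleotide kinase whose gene lies next to Rsad2 (2.67-fold, log2 1.42 ± 0.25 SE, limma adjusted p = 0.00235), Herc6, the mouse ligase for ISG15 (2.00-fold, limma adjusted p = 0.0146), and Ifi27 (1.61-fold, limma adjusted p = 0.0261). Ciita, the master regulator of class II genes, fell 3.14-fold, Tap1, a peptide transporter of class I presentation, 2.35-fold, Ccl5, a chemokine of T and natural killer cells, 2.22-fold and Cd274, the checkpoint ligand PD-L1, 1.95-fold (limma adjusted p = 0.00196, 0.00165, 0.00227 and 0.00316). The plot of pathway genes gives each change with its standard error.

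**Figure D5:**
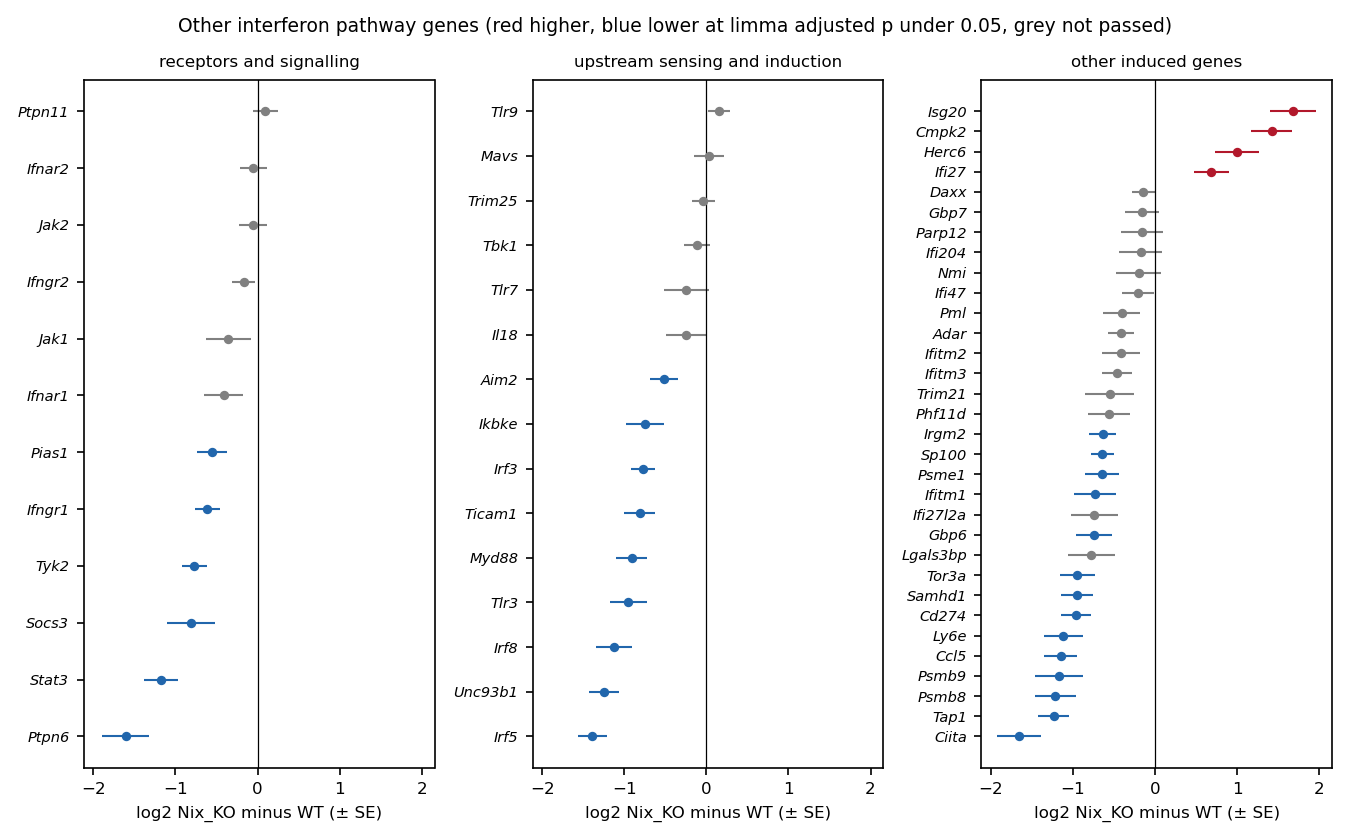
Log2 difference between Nix_KO and WT means (horizontal axis, ± SE) of 12 receptor and signalling genes, 15 sensing and induction genes and 32 other induced genes; red points were higher and blue points lower at limma adjusted p under 0.05, and grey points did not pass. In the first 2 panels all called genes lie left of 0, and in the third Isg20, Cmpk2, Herc6 and Ifi27 lie right of it.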

How the data were processed

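Total RNA of 8 spleens was hybridised to 1 array each. Each array came as deposited intensity values, 1 for each probe set, made with GCRMA per the submitters' processing notes (version not given in the sources used here); GCRMA pulls weak probe sets to a common low level, so their folds depend on it. The deposited intensity values were linear, although the design had allowed for either scale, and were log2-transformed without an offset. Of 45101 probe sets, 64 controls were left out and 22347 were tested; 34945 had 1 gene symbol, 932 several and 9160 none. A gene was its brightest single-gene probe set past the filter (11027 genes). Genotypes were compared with limma 3.58.1 (lmFit, eBayes, two-sided) in R 4.3.3, tested on simulated data, and plots drawn with matplotlib 3.10.9 in Python 3.11.15. No 2 arrays held identical values. All 37 members are named, with up to 4 called genes per direction of each pathway list. Members and lists were chosen with earlier results of these data known. The labels describe separate animals. The limma p-values set each difference against the spread between these arrays, moderated over all features tested, and 4 arrays per group limit the precision. Alternatives covered the filter, scaling, offset, array weights, variance model, test, replicate block, probe set averaging and arrays left out.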

Additional observations from a re-analysis of the deposited data

Results flagged for a closer look

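In 4 of 108 groups of 4 arrays examined for the members, 1 array stood apart from the other 3 by more than Dixon's 95% critical value for such a gap, which chance exceeds in about 1 group in 20. Oasl1 read a log2 intensity of 8.11 in Nix_KO 6 against 7.25 to 7.34 in the other Nix-null arrays, and the mean of the type I class was 0.28 in the same array against -0.17 to -0.11. Zbp1 read 9.05 in WT 6 on its brighter probe set, against 8.50 to 8.51 in the other wild-type arrays. Parp14 read 8.32 in WT 5 on its brighter probe set, against 8.86 to 8.95.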

How the results depend on the processing

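Of 646 member results under 19 alternatives, 531 kept direction and side of the threshold, 69 lost the call, 16 gained one and 30 changed sign; Oas3, Rsad2, Ddx58 and Irf1 kept theirs in all. The counts of members were 5 higher and 10 lower: with no filter 6 fell, with arrays centred on their median 6 fell, with array weights 3 rose, with the unequal-variance test 2 rose and 2 fell (864 and 1077 of all genes, and 5 and 2 member probe sets), without the 3 arrays with pancreatic signal 2 rose (846 and 838 of all genes, and 1 member probe set lower in place of 11), and with the mean of probe sets 8 rose. With 1 array left out, 3 to 6 members rose and 5 to 12 fell, 7 to 11 member probe sets rose and 6 to 15 fell, and 1222 to 1619 of all genes rose and 1780 to 2743 fell. The class gap of 0.57 was 0.47 to 0.70 with 1 array left out. It was 1.0 with the narrow type I class, which held none of the type I members called lower. Centring arrays moved the median of all genes from -0.15 to -0.02.

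A replicate block was set on the title numbers, of which only 3 and 6 occur in both genotypes. With it 3 members rose and 8 fell, beside 772 and 669 of all 11027 genes. Of the member probe sets 0 rose and 0 fell in place of 9 and 11 by limma (8 and 16 at an unadjusted p under 0.05). Counts over all probe sets are not given for the alternatives, so member probe set counts there cannot be set against them. Under this block Usp18 (0.37, limma adjusted p = 0.417), Ifih1 (0.88, 0.0814), Stat2 (-0.61, 0.182), Parp14 (-0.65, 0.164) and Gbp3 (-0.97, 0.0533) did not pass. Same-numbered arrays correlated in their deviations from the group means with r = 0.36 (number 3) and 0.12 (number 6) across 11027 genes, which are not independent; with 2 pairs this does not show pairing.

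Sign changes all concerned members that had not passed. Ifit2 became 0.12 both under quantile normalization and with centred arrays, and 0.063 with array weights; Oas1a became 0.041 centred and 0.10 without the 3 arrays; Oas2 0.043 by quantiles and 0.048 centred; Oasl1 -0.14 with array weights and -0.023 without the 3 arrays; Eif2ak2 -0.39 and Irgm1 -0.044 without the 3 arrays; Irf9 0.0055 by quantiles and 0.10 centred; Xaf1 1.03 with averaged probe sets. With 1 array left out they ranged: Ifit2 from -0.23 to 0.19, Ifit3 from -0.45 to 0.023, Oas1a from -0.35 to 0.19, Oasl1 from -0.20 to 0.083, Eif2ak2 from -0.086 to 0.38 and Irf9 from -0.11 to 0.035. Among probe sets under a log2 intensity of 5 the depth of signal allows no order, and the cause of these changes was not tested.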
